A study of Vitis vinifera with 24 samples.

Results

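Of the 26740 grapevine genes listed in either year's expression table, 7 genes of sugar transport and sucrose cleavage are described here. They were taken by their gene identifiers, with earlier results of these data known. The 4 transporters are the hexose transporter HT1 (VIT_00s0181g00010), HT6 (VIT_18s0122g00850), a carrier of the tonoplast monosaccharide type whose number in that family differs between naming schemes, SWEET10 (VIT_17s0000g00830) and a gene of the MtN3 type (VIT_07s0104g01340). The 3 invertases are the vacuolar GIN1 (VIT_16s0022g00670) and GIN2 (VIT_02s0154g00090) and a cell wall invertase (VIT_09s0002g02320). All 7 were listed in both years and passed the filter on low values in both.

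Sucrose reaches a ripening grape berry through the phloem. Invertases split it into glucose and fructose, outside the cells in the case of the cell wall enzyme and inside the vacuole in the case of GIN1 and GIN2. Hexose transporters such as HT1 carry monosaccharides across the plasma membrane together with protons, and carriers of the tonoplast type load them into the vacuole, where a ripe berry stores most of its sugar. SWEET proteins let sugars pass along their gradient, and the MtN3 name, from a root nodule gene of *Medicago*, marks the same protein family.

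Whole Sauvignon blanc berries from a Bordeaux vineyard were studied by mRNA sequencing in 2013 and 2014. Control vines received no nitrogen fertilizer, whereas soil N100 vines were given ammonium nitrate worth 100 U of nitrogen per ha, part at bud break and part at flowering. Berries were taken 28 and 35 days after mid-veraison, the date at which berries soften, and these stages are called (v + 28) and (v + 35). Each of the 8 combinations of year, stage and treatment had 3 libraries, which makes 24 in all. The vines were irrigated in both treatments and stood in randomized blocks. The clone and the rootstock changed between the years, so that season, clone and rootstock cannot be told apart. Both treatments shared the cultivar and the vineyard. By the study's sampling a library stands for the pooled berries of a block, although the labels name no block.

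A library held between 29.6 and 80.0 M reads in listed genes. At (v + 28) in 2013 every soil N100 library (44.2 to 53.9 M) was deeper than every control library (30.3 to 35.6 M). Nitrite reductase (VIT_03s0063g00370), an enzyme of nitrate assimilation, was 1.53-fold higher with soil N100 over both stages of 2013 (limma, adjusted p = 0.00949), and its log2 difference in 2014 was 0.34 (adjusted p = 0.375). Whole berries can hold seeds. None of 12 seed genes, namely 2 oleosins and 10 LEA genes that the study names in tables chosen on these samples, was at 0 in any library, and the oleosins, which coat seed oil bodies, ranged from 31.6 to 122 RPKM. The summed RPKM of these 12 genes was 342 to 646 in control and 292 to 566 in soil N100 at (v + 28) in 2013, and 581 to 766 in control and 347 to 389.8 in soil N100 at (v + 35). In 2014 it was 387 to 620.2 in control and 559 to 581 in soil N100 at (v + 28), then 265 to 520.1 and 356 to 501 at (v + 35).

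Levels were compared per gene length, as RPKM, the reads per kilobase of exon and M reads of the library. SWEET10 and HT6 held nearly all of the summed transporter RPKM in every library, with 32.7 to 65.6% for SWEET10 and 30.9 to 58.6% for HT6. HT1 took 0.355 to 1.92% and the MtN3-type gene 0.209 to 10.4%. Among the invertases GIN2 and the cell wall invertase were mostly the more abundant transcripts, with 26.0 to 52.8% and 22.9 to 67.8% of the summed RPKM, and GIN1 took 6.21 to 35.2%. The summed level ranged from 81.3 to 499 RPKM for the 4 transporters and from 7.80 to 24.5 RPKM for the 3 invertases, so that the transporters as a class were far above the invertases in each library. The number of reads behind a single value ran from 67, for the MtN3-type gene, to 35922, for HT6.

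**Figure D1:**
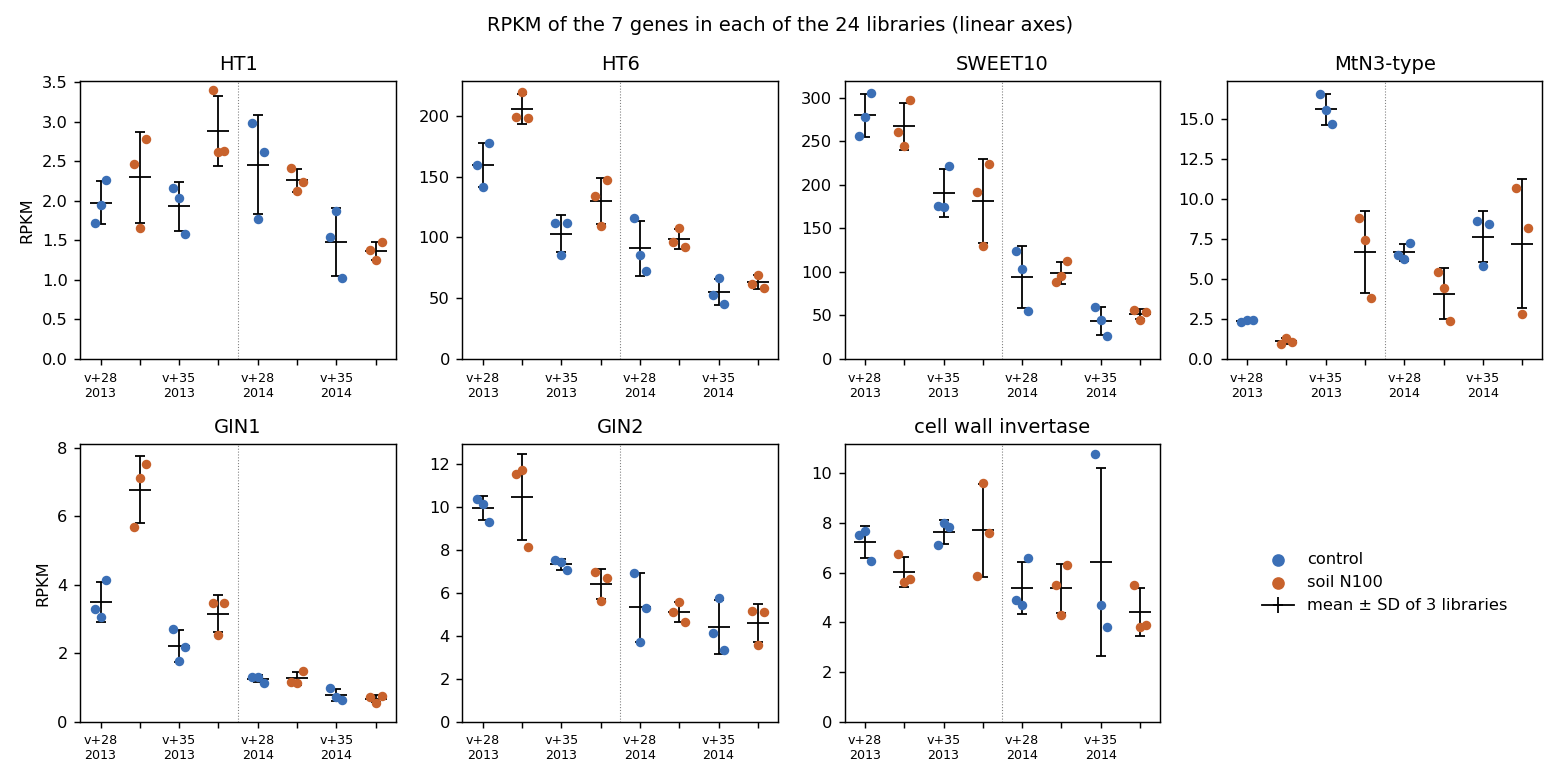
RPKM of each of the 7 genes in the 24 libraries, on linear axes with their own scale per gene; points are libraries (blue control, orange soil N100), bars are the mean ± SD of 3 libraries, and the dotted line parts the years. The MtN3-type gene was highest in the control of (v + 35) in 2013 (14.7 to 16.6 RPKM), and GIN1 was highest in soil N100 of (v + 28) in 2013 (5.68 to 7.54 RPKM).

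The order of the levels changed with the year. In 2013 SWEET10 was the first transporter in all 12 libraries, 1.11 to 2.03 times HT6. In 2014 the same ratio ran from 0.588 to 1.21, so that neither gene was above the other throughout. HT1 and the MtN3-type gene stood far below both. The MtN3-type gene was above HT1 in every library of 7 groups, and below it in all 3 libraries of soil N100 at (v + 28) in 2013. By their group means these genes were closest in control berries of that stage and year, at 1.72 to 2.26 RPKM for HT1 and 2.34 to 2.45 RPKM for the MtN3-type gene. Among the invertases GIN2 was above GIN1 in all 24 libraries, by 1.08 to 7.87 times, and GIN2 and the cell wall invertase overlapped in 6 of the 8 groups. These levels are descriptions of the libraries, and no test was made between genes or between years.

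**Figure D2:**
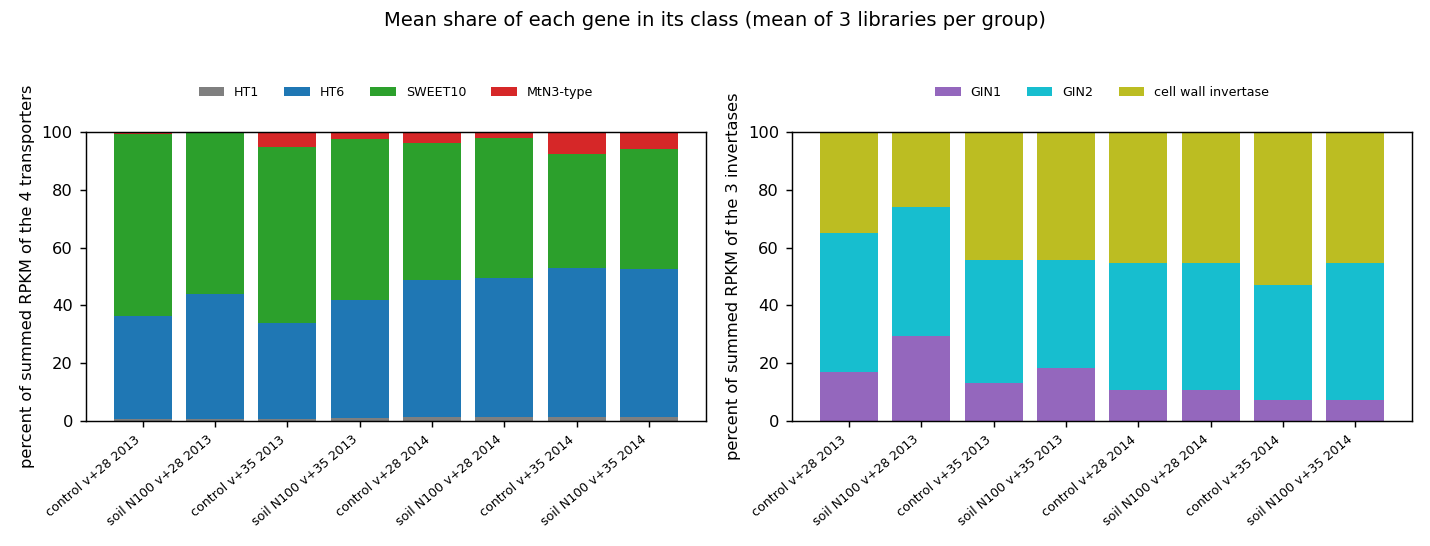
Stacked bars of the mean percentage that each gene took of the summed RPKM of its class in each group of 3 libraries, transporters on the left and invertases on the right. GIN1 took 16.998% of the invertase RPKM in control and 29.3% in soil N100 at (v + 28) in 2013, and the MtN3-type gene 5.07% of the transporter RPKM in control and 2.20% in soil N100 at (v + 35) in 2013.

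The first question was which of these genes differed between soil N100 and control. In 2013 the MtN3-type gene was lower and GIN1 was higher with soil N100, and both were called for the mean of both stages, a fit that treats all libraries as independent. When libraries of the same number were averaged over the stages first, neither was called (adjusted p = 0.0539 for the MtN3-type gene and 0.065 for GIN1). HT6 differed in the same direction as GIN1 by a smaller amount, and SWEET10, the most abundant transporter, was not called. The study reports that nitrogen supply slightly delayed ripening, and that these berries held less sugar with soil N100 in the earlier year. From (v + 28) to (v + 35) in 2013 the MtN3-type gene rose and GIN1 and HT6 fell, each opposite to its difference with soil N100. SWEET10 and GIN2 also fell, but their mean differences with soil N100 were small and negative. Ripeness at sampling may thus have differed between the treatments, and its part in these results was not tested. Calls needed an adjusted p no higher than 0.05 in limma together with a log2 difference of 0.6 or more in size, on the scale of log2(RPKM + 0.5), which understates the fold of low genes. Folds between treatments or stages are given on this scale throughout. The study's tables for 2013 list 3 of the genes (the MtN3-type gene at both stages, GIN1 at (v + 28) and HT1 at (v + 35)) from these same samples, so their direction in 2013 is not independent evidence.

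The MtN3-type gene was the transporter with the largest difference between treatments. At (v + 28) in 2013 it was at 2.34, 2.44 and 2.45 RPKM in control and at 0.967, 1.31 and 1.05 RPKM in soil N100. At (v + 35) it was at 16.6, 15.5 and 14.7 RPKM in control and at 8.79, 7.43 and 3.81 RPKM in soil N100. Neither stage showed any overlap, soil N100 being the lower treatment, and the spread was widest in soil N100 at (v + 35). The log2 difference was -0.86 ± 0.22 (SE, n = 3 against 3) at (v + 28), with an adjusted p of 0.0824 in limma, and -1.24 ± 0.22 at (v + 35), with an adjusted p of 0.105. Averaged over the stages the gene fell by 1.05 on the log2 scale (SE 0.15, 95% interval -1.38 to -0.71), to 0.484 times the control, with an adjusted p of 0.00937, or 0.0539 with the stages averaged per replicate number. The seed genes moved with it in that year, as all 12 had a negative mean effect of soil N100, with a median log2 difference of -0.58, and 2 of 12 were called lower, against 0.85% of all genes. The study's tables that name the seed genes were drawn from these same samples, so their counts are not independent evidence. Their part in the result was not tested.

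HT6 was at 159.8, 141 and 177 RPKM in control and at 199, 219.9 and 198 RPKM with soil N100 at (v + 28) in 2013, without overlap. At (v + 35) it was at 112, 85.6 and 112 RPKM in control and at 134, 109 and 147 RPKM in soil N100, where the lowest soil N100 library fell within the control range. This carrier is the tonoplast member of the set. Its log2 difference was 0.37 ± 0.13 (adjusted p = 0.143) and 0.33 ± 0.13 (adjusted p = 0.217) at the stages. The mean of both was 0.35 ± 0.09 (adjusted p = 0.0299), which passed the p threshold but not the size threshold.

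HT1 was at 1.72, 1.95 and 2.26 RPKM in control and at 2.46, 1.66 and 2.78 RPKM in soil N100 berries 28 days after mid-veraison of 2013, and at 2.16, 2.04 and 1.58 against 3.39, 2.62 and 2.62 RPKM at (v + 35). The treatments overlapped at the first stage and did not at the second. There the log2 difference was 0.48 ± 0.17 (adjusted p = 0.184), and the mean of both stages was 0.32 ± 0.12 (adjusted p = 0.0812).

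SWEET10 was at 256, 278 and 305 RPKM in control and at 260.4, 244 and 297 RPKM in soil N100 berries of the first stage in 2013, and at 176, 174 and 222 against 192, 129.5 and 224 RPKM at (v + 35). The treatments overlapped at both stages. The mean log2 difference was -0.08 ± 0.12, with a 95% interval from -0.35 to 0.19 (adjusted p = 0.655), and it was 0.02 after rescaling by median ratios.

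GIN1, which cleaves sucrose in the vacuole, was at 3.30, 3.05 and 4.15 RPKM in control and at 5.68, 7.13 and 7.54 RPKM with soil N100 at (v + 28) in 2013. At (v + 35) it was at 2.71, 1.77 and 2.19 RPKM in control and at 3.47, 2.53 and 3.48 RPKM in soil N100. The treatments were apart at (v + 28) and overlapped at (v + 35). The log2 difference was 0.86 ± 0.17 at (v + 28), with an adjusted p of 0.0562, and 0.43 ± 0.17 at (v + 35), with an adjusted p of 0.207. The mean of both stages was 0.65 ± 0.12 (95% interval 0.39 to 0.90), a 1.57-fold rise with an adjusted p of 0.012. This call stood close to the size threshold. Without the library control replicate 2 of (v + 35) the log2 difference was 0.58, and with a pseudocount of 1 it was also 0.58, both below the threshold. With the stages averaged per replicate number the adjusted p was 0.065. The 12 seed genes, named in tables that the study drew from these samples, all had a negative mean effect in 2013 (median log2 difference -0.58). They went the other way, and their part in the result was not tested.

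The other vacuolar enzyme, GIN2, and the cell wall invertase did not follow GIN1. GIN2 was at 10.4, 10.2 and 9.33 RPKM in control and at 11.6, 11.7 and 8.17 RPKM with soil N100 at (v + 28) in 2013. At (v + 35) it was at 7.57, 7.43 and 7.06 RPKM in control and at 6.99, 5.63 and 6.68 RPKM in soil N100, all lower, with a log2 difference of -0.18 ± 0.13 (adjusted p = 0.444). Its mean difference over the stages was -0.06 ± 0.09, with a 95% interval from -0.26 to 0.14 (adjusted p = 0.642). The cell wall invertase was at 7.52, 7.66 and 6.48 RPKM in control and at 6.74, 5.62 and 5.74 RPKM with soil N100 at (v + 28), and at 7.09, 8.01 and 7.84 against 5.88, 9.60 and 7.60 RPKM at (v + 35). The treatments overlapped at both stages, and the mean log2 difference was -0.13 ± 0.10, with a 95% interval from -0.35 to 0.10 (adjusted p = 0.391).

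In counts, 0 of the 7 genes were called at (v + 28) in 2013, where 0.0694% of 17298 genes were called. At (v + 35) it was 0 of 7, where 0.00578% were. The study tested these libraries with DESeq2 and reports far more genes at each of these stages. Its tables include the MtN3-type gene at both, GIN1 at (v + 28) and HT1 at (v + 35). Over all genes limma-voom on the recovered reads called 11 at (v + 28) and 1 at (v + 35). Why the fits used here called so few genes at a single stage was not tested. This scarcity does not show that soil N100 had little effect. With unadjusted p of limma, GIN1 and the MtN3-type gene passed at (v + 28) and the MtN3-type gene at (v + 35), whereas limma-voom on the recovered reads called 0 of 7 at either stage. For the mean of both stages 1 of 7 was called higher, against 1.16% of all genes, and 1 of 7 lower, against 0.85%. Both called genes are among those that the study's tables list from these same samples, so this is not the rate of an unselected set. Of the calls over all genes 57.6% were higher, and 79.4% after rescaling by median ratios. With the stages averaged per replicate number 0 of 7 were called. At (v + 28) 2 of 7 genes lay higher in soil N100 without overlap, against 5.68% of all genes, and 1 of 7 lower, against 22% of all. At (v + 35) the count was 1 of 7 higher, against 4.8%, and 2 of 7 lower, against 23.9%. A lower position without overlap was thus common among all genes in 2013. The median log2 difference was 0.06 for the 7 genes and -0.10 for all genes at (v + 28), and -0.01 and -0.10 at (v + 35).

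**Figure D3:**
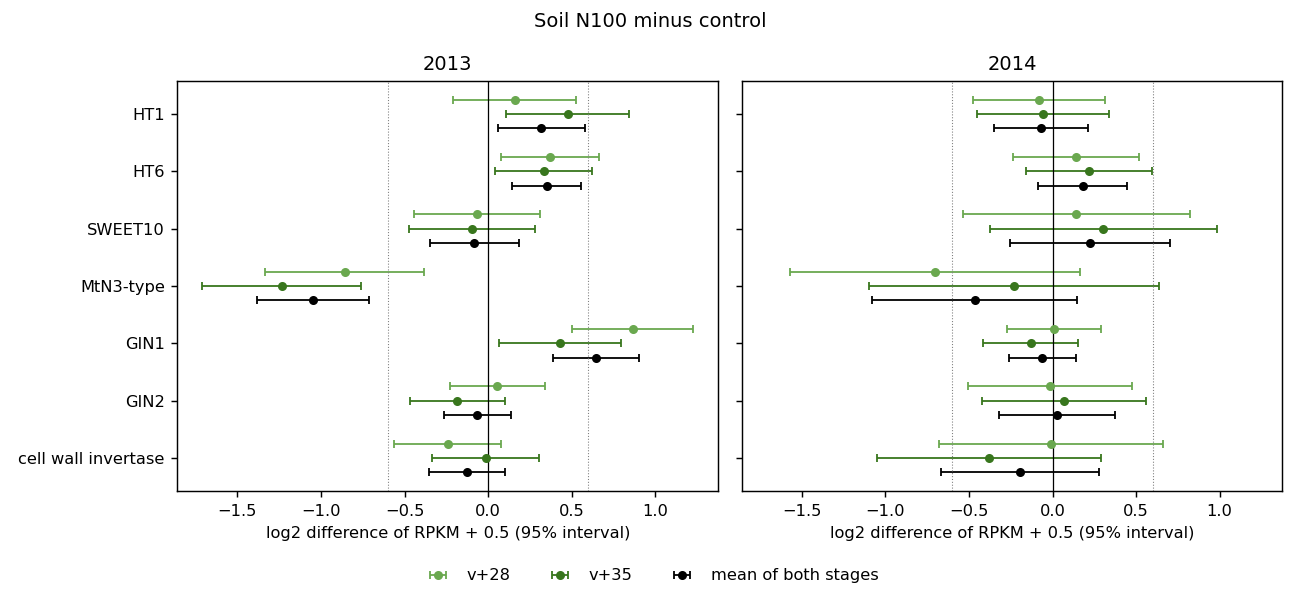
Log2 difference of RPKM + 0.5 between soil N100 and control for the 7 genes in 2013 (left) and 2014 (right), at each stage and as the mean of both; bars are 95% intervals from limma with 3 libraries per group, and dotted lines mark the size threshold of 0.6. In 2013 the MtN3-type gene (mean -1.05) and GIN1 (mean 0.65) lie beyond the thresholds, and in 2014 every interval of the means holds 0.

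The same comparison in 2014 gave no called gene. At each stage 0 of 7 genes were called, where 0% of 17171 genes were called at (v + 28) and 0.00582% at (v + 35), and for the mean of both stages 0 of 7 were called, against 0.0408% of all genes. With unadjusted p of limma the counts were 0 of 7 at (v + 28), at (v + 35) and for the mean, and limma-voom also called none of the 7. The MtN3-type gene was at 6.50, 6.25 and 7.25 RPKM in control and at 5.45, 4.45 and 2.38 RPKM with soil N100 at (v + 28), without overlap, which made 1 of 7 genes lower against 7.08% of all genes. At (v + 35) it was at 8.64, 5.79 and 8.46 RPKM in control and at 10.7, 2.79 and 8.21 RPKM in soil N100, so that 1 soil N100 library was the highest of the 6 and another the lowest. The log2 difference at (v + 28) was -0.70 ± 0.40, with an adjusted p that rounds to 1, and the mean of both stages was -0.47 ± 0.28 (95% interval -1.08 to 0.15, adjusted p = 0.806). Of the seed genes, 12 of 12 had a positive log2 difference at (v + 28) in 2014, with a median of 0.26 and 0 called. At (v + 35) 7 of 12 were positive, with a median of 0.01 and 0 called. Their part in the levels of the MtN3-type gene was not tested.

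GIN1 was low in 2014 and did not part the treatments. It was at 1.32, 1.30 and 1.14 RPKM in control and at 1.17, 1.14 and 1.49 RPKM with soil N100 at (v + 28), and at 0.988, 0.735 and 0.637 against 0.708, 0.556 and 0.746 RPKM at (v + 35). The mean log2 difference was -0.06 ± 0.09, with a 95% interval from -0.26 to 0.14, below the 2013 estimate of 0.65. The direct test between the years, given below, did not call this difference. For HT6 the mean was 0.18 ± 0.12 (adjusted p = 0.829) and for SWEET10 0.22 ± 0.22 (adjusted p = 0.909). The cell wall invertase ranged widely in control at (v + 35), with 10.8, 4.68 and 3.82 RPKM, against 5.51, 3.83 and 3.88 RPKM in soil N100.

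The difference between the years was tested directly. For the mean soil N100 effect 0 of the 7 genes were called, against 0% of all genes tested in both years, 1 of 7 with unadjusted p and 0 of 7 by limma-voom. GIN1 was that gene, with a log2 effect 0.71 ± 0.15 higher in 2013 than in 2014 (unadjusted p = 9.7e-05, adjusted p = 0.149). For the MtN3-type gene the difference was -0.58 ± 0.32 (adjusted p = 0.474). By the adjusted threshold the effects of soil N100 on these genes are not shown to differ between the years. The difference of the soil N100 effect between the stages was called for 0 of 7 genes in 2013 and 0 of 7 in 2014, against 0% of all genes in each year, and with unadjusted p or limma-voom also for 0 of 7 in each. In 2013 it was -0.44 ± 0.24 for GIN1 and -0.38 ± 0.31 for the MtN3-type gene, both with an adjusted p that rounds to 1. For the MtN3-type gene, at 0.967 to 1.31 RPKM in soil N100 at (v + 28), the added 0.5 shrinks the effect of that stage most.

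The second question was how the genes changed during the last week of ripening. The MtN3-type gene rose steeply in 2013 and was the only one of the 7 to be called higher in either treatment of that year. HT6 was called lower in both treatments of 2013 and in the control of 2014, and the vacuolar invertases were called lower in soil N100 of 2013. SWEET10 had lower means at (v + 35) in each of the 4 series of libraries without a call. Called or not, HT6 and GIN1 lay lower at (v + 35) without overlap in all 4 series. HT1 and the cell wall invertase were called in none of the 4.

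**Figure D4:**
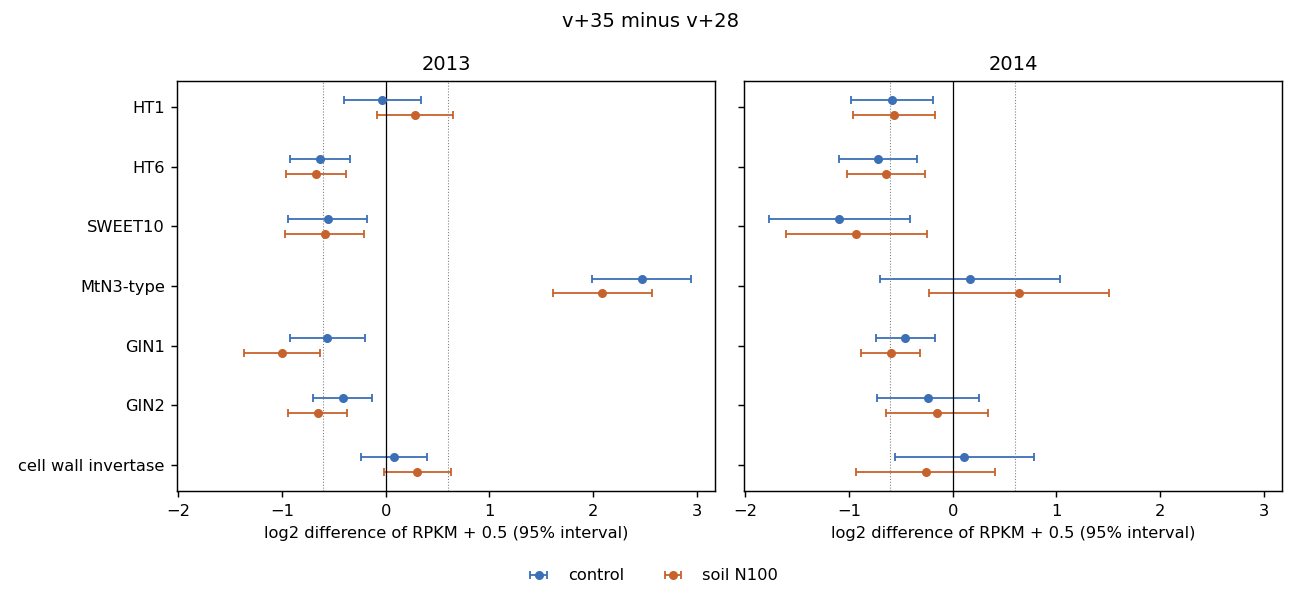
Log2 difference of RPKM + 0.5 between (v + 35) and (v + 28) for the 7 genes in 2013 (left) and 2014 (right), in control (blue) and soil N100 (orange); bars are 95% intervals from limma with 3 libraries per group and dotted lines mark the size threshold of 0.6. The MtN3-type gene lies at 2.47 and 2.09 in 2013 and at 0.16 and 0.64 in 2014, and HT6 lies between -0.63 and -0.72 in all 4.

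The MtN3-type gene went from 2.34 to 2.45 RPKM at (v + 28) to 14.7 to 16.6 RPKM at (v + 35) in the control of 2013, a log2 difference of 2.47 ± 0.22 or 5.53-fold (adjusted p = 9.39e-05 in limma). In soil N100 it went from 0.967 to 1.31 RPKM to 3.81 to 8.79 RPKM, a log2 difference of 2.09 ± 0.22 or 4.26-fold (adjusted p = 0.000182). Both folds are of RPKM + 0.5. The mean RPKM went from 2.41 to 15.6 in control and from 1.11 to 6.68 in soil N100, so the folds understate the rise, most in soil N100. No library of the later stage overlapped with the earlier one. In 2014 the gene was already at 6.25 to 7.25 RPKM in control at (v + 28) and stood at 5.79 to 8.64 RPKM at (v + 35), with a log2 difference of 0.16 ± 0.40 (adjusted p = 0.793). In soil N100 it was 0.64 ± 0.40 (adjusted p = 0.372). Tests of the difference between years, added after the data had been seen, gave 2.30 ± 0.45 in control (adjusted p = 0.00635) and 1.45 ± 0.45 in soil N100 (adjusted p = 0.0556). In control the seed genes moved with it in 2013, with 12 of 12 higher at (v + 35), a median log2 difference of 0.49 and 2 of 12 called higher, against 3.93% of all genes, and in soil N100 8 of 12 were higher with a median of 0.11 and 0 called. In 2014 the median change of the seed genes was -0.12 in control, with 2 of 12 higher, and -0.50 in soil N100, with 1 of 12 higher, where that of the MtN3-type gene was positive. The seed genes come from tables that the study chose on these samples, so their counts are not independent evidence. Their part in the rise of 2013 was not tested.

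HT6 fell from 141 to 177 RPKM to 85.6 to 112 RPKM in the control of 2013 (log2 difference -0.63 ± 0.13, adjusted p = 0.00603) and from 198 to 219.9 RPKM to 109 to 147 RPKM in soil N100 (-0.67 ± 0.13, adjusted p = 0.00474). Both calls stood near the size threshold. After rescaling by median ratios the log2 differences were -0.55 and -0.59, and after quantile normalization -0.57 and -0.56, which ended them. In control they were -0.55 without replicate 3 of (v + 28) and -0.50 without replicate 2 of (v + 35), and in soil N100 -0.55 without replicate 2 of (v + 35), again under the threshold. In 2014 HT6 went from 116, 85.2 and 72.1 RPKM to 52.8, 66.3 and 45.2 RPKM in control (-0.72 ± 0.17, adjusted p = 0.0413) and from 95.9, 108 and 92.5 RPKM to 61.9, 69.4 and 58.4 RPKM in soil N100 (-0.64 ± 0.17, adjusted p = 0.086). The later libraries lay below the earlier ones in both treatments and both years. The call in the control of 2014 was lost in 10 of the 12 fits that each left out a library, and it held only without replicate 3 of (v + 28) or replicate 2 of (v + 35) of the control.

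SWEET10 went from 256, 278 and 305 RPKM to 176, 174 and 222 RPKM in the control of 2013 (-0.56 ± 0.17, adjusted p = 0.0352) and from 260.4, 244 and 297 RPKM to 192, 129.5 and 224 RPKM in soil N100 (-0.59 ± 0.17, adjusted p = 0.0297). Both passed the p threshold and missed the size threshold. In 2014 the change was -1.09 ± 0.31 in control (adjusted p = 0.0634), from 124, 103 and 54.9 RPKM to 59.2, 45.4 and 26.6 RPKM with overlap. In soil N100 it was -0.93 ± 0.31 (adjusted p = 0.138), from 88.7, 95.5 and 112 RPKM to 56.0, 45.0 and 53.8 RPKM without overlap. The later stage was below the earlier one without overlap in 3 of the 4 series.

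HT1 was not called in 2013, with log2 differences of -0.03 ± 0.17 in control (adjusted p = 0.913) and 0.29 ± 0.17 in soil N100 (adjusted p = 0.239). In 2014 they were -0.58 ± 0.18 in control (adjusted p = 0.0756) and -0.56 ± 0.18 in soil N100 (adjusted p = 0.126). The soil N100 libraries of 2014 went from 2.41, 2.12 and 2.24 RPKM to 1.38, 1.25 and 1.47 RPKM without overlap. The added test of the difference between years was 0.55 ± 0.25 in control (adjusted p = 0.143) and 0.85 ± 0.25 in soil N100 (adjusted p = 0.0373). The latter lost its call in 9 of the 24 fits that each left out a library, with adjusted p up to 0.0894, namely without any of the 6 soil N100 libraries of 2014, replicate 2 of soil N100 (v + 28) in 2013, or replicates 1 or 3 of soil N100 (v + 35) in 2013.

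GIN1 fell from 5.68, 7.13 and 7.54 RPKM to 3.47, 2.53 and 3.48 RPKM in soil N100 of 2013, a log2 difference of -0.996 ± 0.17 (adjusted p = 0.00197), and was 0.56 ± 0.17 lower on that scale in the control (adjusted p = 0.0295), which missed the size threshold. In 2014 the difference was -0.45 ± 0.13 in control (adjusted p = 0.0639) and -0.59 ± 0.13 in soil N100 (adjusted p = 0.0521). The stages did not overlap in any of the 4 series. GIN2 fell from 11.6, 11.7 and 8.17 RPKM to 6.99, 5.63 and 6.68 RPKM in soil N100 of 2013 (-0.65 ± 0.13, adjusted p = 0.00474), and its difference in control was -0.41 ± 0.13 (adjusted p = 0.0375). The call of GIN2 ended at -0.58 after median ratios, at -0.56 after quantile normalization and at -0.58, -0.57 and -0.57 without replicate 1 of (v + 28), replicate 2 of (v + 28) and replicate 2 of (v + 35) of soil N100. In 2014 GIN2 stood at -0.24 ± 0.22 in control and -0.15 ± 0.22 in soil N100, with overlap. The cell wall invertase gave 0.08 ± 0.15 and 0.31 ± 0.15 in 2013 and 0.11 ± 0.30 and -0.26 ± 0.30 in 2014, in control and soil N100 in that order, and its stages overlapped in all 4.

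In the control of 2013, 1 of 7 genes was called higher, against 3.93% of all genes, and 1 of 7 lower, against 4.53%. In soil N100 of 2013 the counts were 1 of 7 higher, against 3.72%, and 3 of 7 lower, against 4.58%. In 2014 they were 1 of 7 lower in control, against 1.58% of all genes, and 0 of 7 lower in soil N100, against 0.646%, where the unadjusted count was 2 of 7 and limma-voom called 1. The test between years was called higher in 2013 for 1 of 7 genes in control, against 2.78%, and for 1 of 7 in soil N100, against 1.73%. Without overlap, 4 of 7 genes were lower at (v + 35) in the control of 2013 against 31.7% of all genes, and 1 of 7 higher against 15.2%. In soil N100 of 2013 the counts were 4 of 7 against 24.8% and 1 of 7 against 11.9%, and in 2014 2 of 7 lower in control against 14.4% and 4 of 7 lower in soil N100 against 17.1%. Of the calls over all genes in 2013, 46.4% were higher in control and 44.8% in soil N100, and after median ratios 60.9% and 59.2%. The median log2 difference of the 7 genes was -0.41 in control and -0.59 in soil N100 of 2013, against -0.08 for all genes in each, and -0.45 and -0.56 in 2014, against -0.04 and -0.00 for all genes.

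A further 15 genes of sugar metabolism, which the study's own tables name and chose on these samples, were counted beside them. For the mean of both stages of 2013, 5 of 15 were called higher, against 1.16% of all genes, and 3 of 15 lower, against 0.85%, and in 2014 0 of the 13 that passed the filter were called, against 0.0408%. Since the study picked these genes from the same libraries, the counts of 2013 are not independent evidence. Among the 4 other sugar carriers, MSS1 (VIT_05s0020g03140), described as a hexose and proton symporter, rose 1.52-fold (adjusted p = 0.0273), and another gene described as MtN3 family (VIT_14s0066g01420) rose 2.09-fold (adjusted p = 0.0334), the opposite direction to VIT_07s0104g01340. Among the 3 genes of sucrose and starch, the sucrose synthase SUS4 (VIT_11s0016g00470), which also cleaves sucrose, fell to 0.581 times the control (adjusted p = 0.0119). It was at 87.8 to 121 RPKM in control and at 56.8 to 72.6 RPKM with soil N100 at (v + 28), and at 76.6 to 123 against 47.9 to 70.8 RPKM at (v + 35). An ADP-glucose pyrophosphorylase family gene (VIT_17s0000g07640), of the first step of starch synthesis, rose 1.53-fold (adjusted p = 0.0124).

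Of the 2 genes described as invertase or pectin methylesterase inhibitors, VIT_16s0022g00870 fell to 0.405 times the control over both stages of 2013 (adjusted p = 0.00609). It was at 85.5 to 155 RPKM in control and at 42.4 to 51.8 RPKM with soil N100 at (v + 28), and at 40.01 to 48.2 against 11.8 to 21.6 RPKM at (v + 35). The description does not separate inhibitors of the 2 kinds of enzyme. In 2014 its log2 difference was -0.49 ± 0.08 (adjusted p = 0.095). It also fell from (v + 28) to (v + 35) in 2013, by 1.32 on the log2 scale in control (adjusted p = 0.00219) and by 1.48 in soil N100 (adjusted p = 0.00126). The other, VIT_19s0027g01810, was at most 0.0358 RPKM at (v + 28) in 2013 and at 1.48 to 1.98 RPKM in control and 0.405 to 0.690 RPKM with soil N100 at (v + 35), and it did not pass the filter in 2014.

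Of the 6 genes of minor carbohydrates, 2 rose over both stages of 2013, namely an aldo/keto reductase family gene (VIT_08s0007g01040, 2.00-fold, adjusted p = 0.0204) and an inositol oxygenase (VIT_11s0016g02800, 1.85-fold, adjusted p = 0.0411). The stachyose synthase VIT_07s0005g01680, of the raffinose family of sugars, fell to 0.511 times the control (adjusted p = 0.00981). The median log2 difference of the 15 genes was 0.29 in 2013 and 0.02 in 2014, against -0.10 and -0.03 for all genes.

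For each of the 7 genes the gene with the most similar pattern was found among 16899 genes, by the lower of the correlations of log2(RPKM + 0.5) over the 12 libraries of each year. These values describe the libraries, which form 4 groups of treatment and stage in each year and share depth and tissue. The lower r was 0.97 for HT6 with VIT_17s0000g01160, 0.93 for GIN1 with VIT_01s0026g00980, 0.91 for SWEET10 with VIT_06s0004g06820 and 0.90 for GIN2 with VIT_13s0019g00670. It was 0.83 for the MtN3-type gene with VIT_02s0241g00060, 0.78 for the cell wall invertase with VIT_01s0026g01730 and 0.74 for HT1 with VIT_18s0001g03540, the lowest of the 7.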

How the data were processed

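RNA of whole berries was sequenced by the authors from poly-A libraries whose kit does not mark strand. The deposited values are RPKM, made by the authors, who aligned the reads on the 12X assembly using TopHat2 2.0.10 and Bowtie2 2.1.0, keeping uniquely aligned reads and counting them per V1 gene with HTSeq 0.5.4p3, so reads shared by near-identical copies were lost and overlapping antisense transcripts cannot be told apart. Whole-number reads that fit the RPKM within 0.01 reads were found for 100% of genes. For genes with few reads such a solution need not be the true count. The recovered reads of listed genes made up 83.9 to 86.7% of the library size.

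In each year log2(RPKM + 0.5) was fitted for genes averaging 0.5 RPKM or more over the 12 libraries with limma 3.58.1 in R 4.3.3, with 4 group means, a trend and Benjamini-Hochberg adjustment over all genes tested (17298 in 2013, 17171 in 2014). Years were compared by the difference of their estimates, with Welch-Satterthwaite degrees of freedom. The mean of both stages treats all libraries as independent, although blocks were sampled at each stage. For 1 gene at 1 stage an exact permutation test of 3 libraries against 3 reaches no p under 0.1, and no permutation test was run. By the study's methods replicates come from field blocks of vines, and p values measure the spread between libraries within groups.

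Values were read with Python 3.11.15, and the fit and the recovery of reads were tested on simulated data. Alternatives were pseudocounts of 0.1 and 1, no filter or a minimum mean of 2 RPKM, median ratios, quantile normalization, no trend, limma-voom on the recovered reads, a replicate block, the 6 libraries of a comparison alone, stages averaged within replicate numbers, other thresholds, and each library left out. The tests of stage changes between years and reads thinned to the shallowest library were chosen after seeing the data. All 7 genes are named, with the called genes and up to 2 others per group of the further sugar genes, and for each of the 7 the gene most like it. The genes and lists were chosen with earlier results of these data known. Of 26740 gene IDs, 0 were found in the RefSeq gene table used here, so no coordinates or sequences are given. The labels do not say that a replicate number marks a block, and the numbers were not taken as pairs.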

Additional observations from a re-analysis of the deposited data

Results flagged for a closer look

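The change from (v + 28) to (v + 35) differed between the years for a pair of the genes. For the MtN3-type gene in control berries the log2 difference was 2.30 larger in 2013 than in 2014 (adjusted p = 0.00635), and over the alternatives the adjusted p ranged from 0.000521 to 0.023. For HT1 in soil N100 berries it was 0.85 larger in 2013 (adjusted p = 0.0373), and the call was lost without any 1 of 9 libraries. Both tests were chosen after seeing the data, and clone, rootstock and season changed together with the year. Their parts in these differences cannot be told apart.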

How the results depend on the processing

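For those log2 differences of the 7 genes that the text gives, and alternatives other than leaving out a library, 690 values kept their direction and side of the threshold, 22 gained a call, 14 lost one and 5 changed sign. For soil N100 in 2013, the number of the 7 genes called at (v + 28) was 2 with unadjusted p, and at (v + 35) it was 1 with unadjusted p. For the mean of both stages it was 1 with a pseudocount of 1 and 0 with stages averaged per replicate number. The mean log2 difference of SWEET10 was 0.023 with median ratios, and that of GIN2 was 0.035 with median ratios and 0.030 with quantile normalization. From (v + 28) to (v + 35) in the control of 2013, 1 gene was called with median ratios, 1 with quantile normalization and 5 with no threshold on the log2 difference, and HT1 was at 0.032 with median ratios and 0.0042 with thinned reads. In soil N100 of 2013 it was 2 genes with median ratios and 2 with quantile normalization. In the control of 2014 it was 0 with no filter, 0 with median ratios, 0 with the 6 libraries alone, 2 with limma-voom and 2 with unadjusted p. In soil N100 of 2014 it was 1 with limma-voom, 2 with the 6 libraries alone and 2 with unadjusted p. For the differences between years, 1 gene was called for the mean soil N100 effect with unadjusted p, and for the stage change in soil N100 2 with a pseudocount of 0.1, 0 with no filter and 2 with unadjusted p. Beyond what each alternative's construction shows, the cause was not tested.

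The replicate numbers were not taken as pairs, since not every correlation of the deviations of same-numbered libraries was over 0.1. In 2013 it ran from -0.32 to 0.36 between treatments and from 0.030 to 0.28 between stages, where 6 of 6 were positive and 9 of 12 libraries correlated best with their own number. In 2014 it ran from -0.43 to -0.06 between treatments and from -0.41 to 0.04 between stages, and 0 of 12 did. Whether the numbers mark blocks in 2013 cannot be told from these values. With a replicate block 1 of the 7 genes, GIN1, was called at (v + 28) in 2013 and 0 for the year difference of the stage change in soil N100. Over all genes the block moved the calls at (v + 28) in 2013 from 12 to 212.

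Leaving out each library in turn, the number of the 7 genes called ranged from 0 to 1 at (v + 28) in 2013, from 1 to 2 for the mean of 2013, from 1 to 3 and from 2 to 5 for the stage change of 2013 in control and soil N100, and from 0 to 3 and from 0 to 1 for that of 2014. For the year difference of the stage change it ranged from 1 to 2 in control and from 0 to 2 in soil N100. The mean log2 difference ranged from -0.17 to 0.030 for SWEET10 and from -0.11 to 0.017 for GIN2 in 2013, and from -0.33 to 0.014 for the cell wall invertase in 2014. The stage change ranged from -0.11 to 0.077 for HT1 in the control of 2013, from -0.30 to 0.39 for the cell wall invertase in the control of 2014 and from -0.23 to 0.0032 for GIN2 in soil N100 of 2014.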
